A study of Rattus norvegicus with 50 samples.

Results

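The comparison described here set the livers of rats given nevirapine together with galactosamine, taken 48 h after galactosamine, against those of vehicle-dosed rats taken at the same time. It covers 6 of the 50 arrays of a liver time course, 3 from the combination (rat70, rat71 and rat72) and 3 from vehicle (rat10, rat11 and rat12), chosen by their sample titles. All rats were female Brown Norway rats of the Bn/Crl line, strain 091, with the RT1n haplotype of the MHC, aged 9 to 11 weeks. Combination rats received oral nevirapine at 150 mg/kg for 1 day and 100 mg/kg for 2 days, then had 1 day without drug, and went on at 75 mg/kg. On day 7 galactosamine was injected once into the peritoneum (750 mg/kg), and livers were frozen 48 h later, 2 h after the 10th nevirapine dose. Vehicle rats had a sham intraperitoneal dose 48 h before and a sham oral dose 2 h before sampling. Further groups served for comparison. They were 2 rats that had galactosamine alone (750 mg/kg) with a sham oral dose and sampled at 48 h, and combination rats sampled at 24 h and at 8 d after galactosamine (3 each, 2 h after the 9th and the 16th nevirapine dose) with vehicle rats sampled at 24 h and at 15 d (3 each). The series was built around the 8 days over which, per its design text, fibrosis appeared after both drugs and after neither alone. All groups were whole frozen liver of 1 strain and 1 sex, and no group was sorted into cell types.

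Nevirapine is a non-nucleoside inhibitor of the HIV reverse transcriptase and an activator of the liver receptors CAR and PXR, which turn on genes for drug oxidation, conjugation and export. Galactosamine injures hepatocytes by trapping their uridine nucleotides, so that RNA and glycoprotein synthesis stall. Cell death is followed by clearance by resident Kupffer cells and incoming macrophages, and by division of surviving hepatocytes. MHC class II molecules, carried mainly by macrophages, dendritic cells and B cells, present peptides to CD4+ T cells, and interferon gamma raises them through the transactivator Ciita.

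Signal is given on the log2 scale, 1 probe set per gene, for 14217 genes, with combination values in the order rat70, rat71, rat72 and vehicle values in the order rat10, rat11, rat12. A difference is the combination mean minus the vehicle mean (n = 3 each). A gene was called at an adjusted p under 0.05 in a limma fit over all 50 arrays. The standard error (SE) after each ± comes from that fit. It uses 1 spread per gene shared by all 17 groups, so that it can be smaller than the spread of the rats compared would give. A mean under 4.37, the highest mean of 27 bacterial control probe sets, was treated as background, and a fold against it is given as a lower bound. The arrays measured liver in both groups, with mean albumin (Alb) signal of 14.16 in combination and 14.16 in vehicle and transthyretin (Ttr) at 13.48 and 13.55. The 3′ minus 5′ difference of the GAPDH control probe sets, a measure of RNA integrity, was 0.293 to 0.348 in combination and 0.483 to 0.744 in vehicle (difference of -0.294, exact permutation test, two-sided p = 0.1, the smallest 3 against 3 allows). That of the actin control probe sets was 1.589 to 1.688 in combination and 1.821 to 2.139 in vehicle (difference of -0.324, exact permutation test, two-sided p = 0.1). The part of this in the results was not tested beyond the fit with the GAPDH covariate. Rat70 stood apart within its group on the first principal component over all arrays (31.8% of the variance). There the combination rats lay at -17.38, 9.62 and 5.50 and the vehicle rats between 17.24 and 18.97. On the second (12.8%) rat71 stood apart at -8.56, with rat70 at 8.50 and rat72 at 9.28. The mean correlation with the rest of the group was 0.9864 for rat70, 0.9881 for rat71 and 0.9861 for rat72. Among the called genes, rat70 was the combination rat farthest from vehicle in 62.1%, and the median distance from the vehicle mean was 0.78 in rat70, 0.47 in rat71 and 0.49 in rat72. Counts are therefore given with all rats and without rat70. A gene called with every rat in and also with each of the 6 rats left out in turn is said to be called throughout.

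Of the 14217 genes, 2265 were called (15.9%), 1445 higher (10.2%) and 820 lower (5.77%) in combination than in vehicle livers, and 377 of them differed by more than 2-fold (293 higher, 84 lower). Without rat70 the count was 1104 (7.77%; 717 or 5.04% higher, 387 or 2.72% lower), of which 1040 were also called in the same direction with all rats, and without rat12 it was 1402. Called throughout were 784 genes (5.51%), 509 higher (3.58%) and 275 lower (1.93%). With the GAPDH difference as a covariate 1665 genes were called (11.7%; 1080 or 7.60% higher, 585 or 4.11% lower), and in a fit of these 6 arrays alone 374 (2.63%; 198 or 1.39% higher, 176 or 1.24% lower). The labels do not say more of the rats within a group than their numbers. Outside the fit of these 6 arrays, each limma p rests on a spread per gene shared by all 17 groups. It is thus no measure of the spread between the rats compared alone. The median standard deviation over genes was 0.181 in the combination rats and 0.118 in the vehicle rats. The 3 combination values and the 3 vehicle values did not overlap for 3966 genes (27.9%), 1963 of which were also called (13.8%). The median difference over all genes was 0.03.

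The largest rises and falls below were picked among called genes whose groups did not overlap. The gene with the largest rise was Sult1e1, the estrogen sulfotransferase. Its signal was 13.16, 12.51 and 11.89 in combination and 6.96, 5.47 and 7.83 in vehicle, a difference of 5.77 ± 0.67 or 54.5-fold (adjusted p = 1.39e-07). The lowest combination rat was thus above the highest vehicle rat by several log2 units. Next came Cyp3a2, a drug-oxidising P450 that adult male rat liver expresses far more than female liver, with 12.01, 12.08 and 9.20 in combination and 8.52, 6.48 and 6.66 in vehicle (3.88 ± 0.75, 14.7-fold, adjusted p = 0.000318). Here rat72 was well under the other combination rats and still above all vehicle rats. Gstm3, a glutathione transferase, had 8.08, 8.32 and 7.16 in combination and 4.68, 4.63 and 4.43 in vehicle (3.27 ± 0.40, adjusted p = 3.51e-07). Ces2c, a carboxylesterase induced by CAR and PXR ligands, had 11.48, 11.74 and 10.98 against 8.60, 8.52 and 8.76 (2.78 ± 0.25, adjusted p = 1.22e-09), the smallest SE of these 4 rises.

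The rest of the 12 largest rises came from several groups of genes. Mnd1, which works in meiotic recombination, had 8.00, 7.35 and 5.95 in combination against 4.37, 4.05 and 4.33 in vehicle, at least 6.63-fold higher (adjusted p = 1.13e-06). Poteml2 had 7.71, 7.98 and 4.59 against 3.76, 3.42 and 3.35 (at least 5.23-fold, adjusted p = 3.83e-05), with rat72 near background. Zdhhc2, a palmitoyltransferase, was at least 4.8-fold higher, with 7.07, 7.28 and 5.56 against 3.98, 3.90 and 4.18 (adjusted p = 8.98e-08). Each of these 3 genes, like the 4 above, had its lowest combination value in rat72. Stmn1, a destabiliser of microtubules in dividing cells, had 9.06, 7.86 and 8.33 against 5.99, 5.65 and 5.86 (2.58 ± 0.33, adjusted p = 7.72e-07). Mcm6, Gbp2, RT1-Da and Gpnmb, the other members of the 12, are described with their groups.

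Among the 12 largest falls, Mtmr7, a phosphoinositide phosphatase, had 3.61, 4.28 and 5.72 in combination and 7.84, 7.59 and 7.48 in vehicle (-3.10 ± 0.51, adjusted p = 3.96e-05). Mmd2 had 6.06, 6.67 and 6.18 against 8.94, 9.35 and 8.71 (-2.70 ± 0.29, adjusted p = 3.39e-08). Igfbp2, which binds insulin-like growth factors, had 8.12, 9.37 and 9.00 against 11.09, 10.83 and 10.95 (-2.13 ± 0.39, adjusted p = 0.000152). In each of these the groups were separated by more than 1 log2 unit. Prodh, the proline oxidase, had 7.86, 9.17 and 9.90 against 10.76, 11.12 and 11.17 (-2.04 ± 0.28), and Fads2, the delta-6 desaturase of polyunsaturated fats, had 6.82, 8.41 and 7.96 against 9.87, 9.95 and 9.37 (-2.01 ± 0.29, adjusted p = 6.28e-06). A second probe set of Prodh differed by 0.08 and was not called. Noct, a rhythmic gene of the liver, had 6.38, 5.45 and 6.52 against 8.49, 7.47 and 8.50 (-2.04 ± 0.49, adjusted p = 0.00317). Fmo1, a flavin monooxygenase, fell by 1.86 ± 0.28, Slc25a25, a mitochondrial carrier of ATP and phosphate, by 1.83 ± 0.41, Elapor1 by 1.92 ± 0.26 and Ppp2r2b, a regulatory subunit of protein phosphatase 2A, by 1.87 ± 0.35. Arhgef37 was at least 3.01-fold lower. Serpina7, the thyroxine-binding globulin, had 5.95, 7.04 and 7.75 against 9.30, 9.16 and 8.21 (-1.98 ± 0.50, adjusted p = 0.00505), and its call was lost without rat70 (adjusted p = 0.0818). The other 11 kept their calls with each rat left out.

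**Figure D1:**
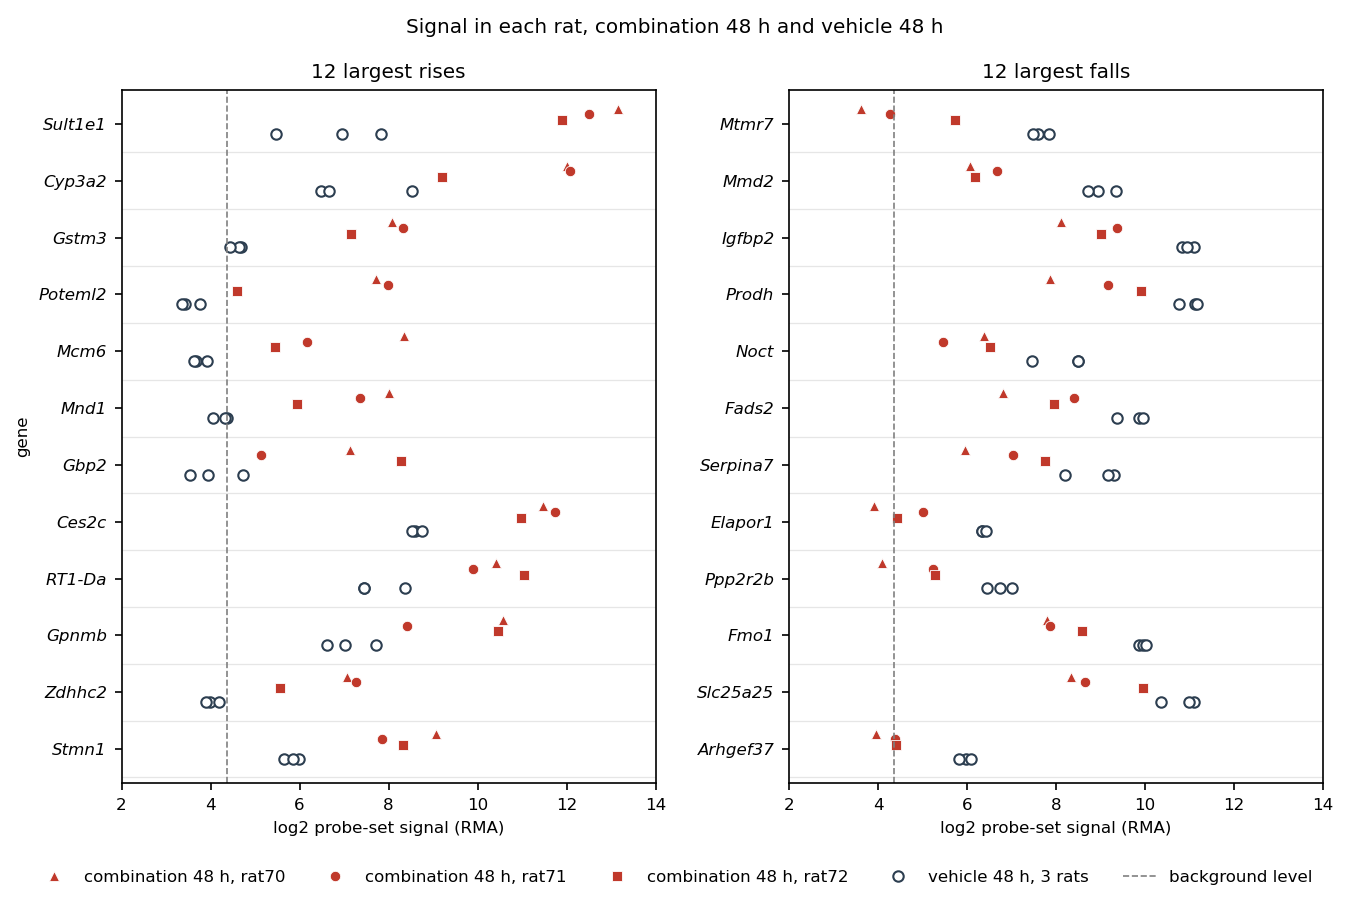
Signal of the 12 genes with the largest rises (left) and the 12 with the largest falls (right), on the log2 scale. Filled markers are the 3 combination rats, 1 shape per rat, open circles the 3 vehicle rats, and the dashed line is the background level of 4.37. Within every gene the groups do not overlap, Sult1e1 lies between 11.89 and 13.16 in combination, and rat72 has the lowest combination value of Cyp3a2, Poteml2 and Mnd1.

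Drug-handling genes were higher across several classes. Of 23 measured targets of CAR and PXR, 17 rose and 1 fell, where 10.2% of all genes rose and 5.77% fell. Their median difference was 0.94 against 0.03 over all genes, and 11 rose without rat70 (5.04% of all genes). Those called throughout, also 11, span oxidation, hydrolysis, conjugation and export: Abcb1a, Abcc3, Akr7a3, Alas1, Aldh1a1, Ces2c, Cyp3a2, Ephx1, Gstm1, Por and Ugt2b1. Aldh1a1, which oxidises retinaldehyde and other aldehydes, had 13.06, 13.03 and 12.07 in combination and 10.79, 10.84 and 11.11 in vehicle (1.81 ± 0.29, adjusted p = 2.88e-05). Abcc3, which exports conjugates from hepatocytes into blood, had 10.09, 9.38 and 9.00 against 7.47, 7.80 and 7.84 (1.79 ± 0.27, adjusted p = 1.4e-05). The member that fell was Nr1i2, which encodes PXR itself, and its call was not kept with every rat left out. The mean over the 23 targets exceeded the vehicle mean by 1.08 in rat70, 1.08 in rat71 and 0.60 in rat72.

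The rise of Sult1e1 was not shared by its family. Of 12 measured cytosolic sulfotransferases, 2 rose, 1 fell and 9 did not pass the test, where 10.2% of all genes rose and 5.77% fell. The median difference was 0.03. Sult1b1, which acts on thyroid hormones and phenols, had 12.75, 12.53 and 12.47 in combination against 11.43, 11.77 and 12.10 in vehicle (0.82 ± 0.16, adjusted p = 0.000412). Sult1c2 moved the other way, with 6.63, 7.74 and 7.30 against 8.78, 8.70 and 8.69 (-1.50 ± 0.22, adjusted p = 7.21e-06). All 3 calls were kept with each rat left out. The phenol sulfotransferase Sult1a1 (mean of 11.76 in combination and 12.06 in vehicle), Sult1c3 (10.89 and 11.40), and the steroid sulfotransferases Sult2a2 (11.70 and 11.84) and Sult2a6 (12.37 and 12.58) were bright and not called. Sult2b1, Sult4a1 and Sult5a1 differed by 0.12 at most, and Sult1d1 and Sult2a1 were under background in both groups.

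Targets of NRF2, the regulator of the response to oxidants and electrophiles, were higher as well. Of 17 measured members 12 rose and 0 fell (median 0.67), 6 rose without rat70, and 5 were called throughout. Over all genes 10.2% rose, 5.04% without rat70 and 3.58% throughout. Hmox1, which degrades heme, had 8.81, 9.38 and 9.33 in combination and 7.85, 7.68 and 7.11 in vehicle (1.63 ± 0.25, adjusted p = 1.25e-05). Srxn1, which repairs oxidised peroxiredoxins, had 8.51, 9.05 and 7.85 against 6.63, 6.82 and 6.63 (1.78 ± 0.42, adjusted p = 0.00261). The 2 other probe sets of Srxn1 differed by 0.04 and 1.07 and were not called. The glutathione reductase Gsr (1.44 ± 0.33) and the carbonyl reductase Cbr1 (1.30 ± 0.22) also rose, while Gclc and Gclm, which build glutathione, did not pass the test.

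MHC class II presentation was higher in nearly every member. Of 9 measured members 8 rose, all 8 were called throughout, with a median difference of 1.98. Over all genes 10.2% rose and 3.58% did so throughout. RT1-Da, the alpha chain of the rat class II molecule RT1-D, had 10.42, 9.90 and 11.05 in combination and 8.38, 7.44 and 7.46 in vehicle (2.70 ± 0.26, 6.48-fold, adjusted p = 2.62e-09). Its partner beta chain RT1-Db1 had 9.91, 9.51 and 10.74 against 8.07, 7.06 and 7.41 (2.54 ± 0.26, adjusted p = 1.13e-08). The chains of the other class II molecule, RT1-Ba and RT1-Bb, rose by 1.98 ± 0.22 and 2.22 ± 0.28. Cd74, the invariant chain that guards the peptide groove, had 10.92, 10.63 and 11.52 against 9.11, 8.27 and 8.38 (2.44 ± 0.25). In each of these genes the lowest combination rat was above the highest vehicle rat. The peptide editors RT1-DMa and RT1-DMb rose by 1.59 ± 0.24 and 1.58 ± 0.23, and Ifi30, a lysosomal thiol reductase, by 0.61 ± 0.12. Ciita, the class II transactivator, had 5.35, 5.16 and 5.50 against 5.14, 5.23 and 5.20 and did not pass the test (0.15 ± 0.11, adjusted p = 0.433). Its probe sets disagreed, since the dimmer one had 5.47, 4.31 and 6.17 in combination against 4.49, 4.44 and 4.25 in vehicle and was called higher (0.92, adjusted p = 0.0134 over all probe sets), with rat71 inside the vehicle range.

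Class II promoters carry an X box and a Y box, the second an inverted CCAAT element bound by NF-Y, on which Ciita assembles. The promoters of the 4 chains above, from RefSeq (GRCr8), are printed because all 4 rose together, with the Y box letters CTGATTGG in capitals. RT1-Da lies at chr20:4515288-4515395 on the plus strand, RT1-Db1 at chr20:4560213-4560320 on the minus strand, RT1-Ba at chr20:4576936-4577043 on the plus strand and RT1-Bb at chr20:4604150-4604257 on the minus strand.
RT1-Da: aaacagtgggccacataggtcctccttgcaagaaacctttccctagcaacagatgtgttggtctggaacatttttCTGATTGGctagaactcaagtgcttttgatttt
RT1-Db1: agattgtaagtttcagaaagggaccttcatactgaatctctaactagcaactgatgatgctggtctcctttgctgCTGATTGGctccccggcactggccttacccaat
RT1-Ba: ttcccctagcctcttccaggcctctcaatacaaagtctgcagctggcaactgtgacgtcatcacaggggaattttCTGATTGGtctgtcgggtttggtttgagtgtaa
RT1-Bb: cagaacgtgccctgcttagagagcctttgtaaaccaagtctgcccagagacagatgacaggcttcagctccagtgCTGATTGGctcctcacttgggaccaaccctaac
The letters were searched on both strands (CTGATTGG or CCAATCAG) in the 250 bases before each start site. They were found in 4 of the 7 class II members with a promoter in the table (57.1%) and in 533 of 11733 genes (4.54%). A match is a description of these letters and was chosen after the values were seen.

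Macrophages carry class II, and their genes moved with it; whether the same cells gave both was not tested. Of 24 measured genes of macrophages in injured tissue 16 rose and 0 fell (median 1.22), 14 rose without rat70, and 14 were called throughout. The matching shares of all genes were 10.2% higher, 5.04% without rat70 and 3.58% throughout. Gpnmb, a glycoprotein of lipid-loaded macrophages, had 10.57, 8.41 and 10.46 in combination and 7.71, 7.03 and 6.62 in vehicle (2.69 ± 0.35, adjusted p = 1.21e-06). Lgals3, a galactose-binding lectin, had 10.22, 8.28 and 10.27 against 7.83, 7.41 and 6.75 (2.26 ± 0.35, adjusted p = 1.74e-05), so that rat71 was the lowest combination rat in both genes. The lysosomal marker Cd68 rose by 1.74 ± 0.28 and Aif1 by 1.63 ± 0.32. Ccr2, the monocyte chemokine receptor, was under background in both groups. In bulk liver, more cells of a type and more RNA per cell cannot be told apart.

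Resident Kupffer cell genes were higher in 7 of 8 measured members, also without rat70, and all 7 were called throughout (median 1.06). The matching shares of all genes called higher were 10.2%, 5.04% and 3.58%. Clec4f, a lectin that marks Kupffer cells, had 10.27, 10.20 and 10.56 in combination and 10.07, 9.24 and 8.64 in vehicle (1.03 ± 0.23, adjusted p = 0.0014). The scavenger receptor Cd163 had 7.88, 7.96 and 8.81 against 7.62, 7.32 and 6.62 (1.03 ± 0.23). The complement subunits C1qa, C1qb and C1qc rose by 1.10 ± 0.21, 1.55 ± 0.25 and 1.16 ± 0.22, Cd5l, a secreted scavenger protein, by 1.42 ± 0.30 and the mannose receptor Mrc1 by 0.88 ± 0.15. The mean over the 8 members exceeded the vehicle mean by 0.86, 0.69 and 1.38 in the combination rats, against 0.60 in vehicle rat10, so that the gap was narrow. Slc40a1, the iron exporter, was not called (9.92 in combination and 10.25 in vehicle).

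Among genes of other leukocytes, none of those called was called throughout. Of 20 T and NK cell genes 4 were called higher (Cd3d, Cd3g, Gzma and Lck), where 10.2% of all genes were, and 11 were under background in both groups. Among 11 neutrophil genes Fcnb and S100a8 were called and 8 were under background in both groups, including S100a8 (3.27 in combination and 2.47 in vehicle). Pou2af1 was the member called among 9 B and plasma cell genes and Mcpt1 among 15 mast cell and eosinophil genes. Fcnb lost its call without rat72 (adjusted p = 0.0885), rat10, rat11 or rat12, S100a8 without rat72 (0.371) or any rat but rat71, Mcpt1 without rat10 (0.0971) or any rat but rat72, and Pou2af1 without any one of the 6 (up to 0.162). The call of Lck was lost without rat12 (adjusted p = 0.105) and that of Gzma without rat72 (adjusted p = 0.434), rat70 (0.0507), rat11 (0.0929) or rat12 (0.194). Cd3d lost its call without rat72 (adjusted p = 0.249) or any rat but rat71, and Cd3g without rat72 (0.366), rat11 or rat12. Among 27 chemokines, 4 rose, where 10.2% of all genes rose and 5.77% fell. Cxcl9, induced by interferon gamma, had 8.09, 7.06 and 9.36 in combination and 6.34, 5.47 and 5.94 in vehicle (2.25 ± 0.34, adjusted p = 1.1e-05), Ccl6 rose by 1.65 ± 0.26 and Cxcl16 by 1.01 ± 0.21. The eosinophil attractant Ccl11 had 5.28, 2.97 and 6.98 against 2.58, 2.85 and 2.76, and its call was lost without rat72 (adjusted p = 0.0803). Among 20 cytokine and feedback genes, 4 were called higher and 2 lower, and Il33 alone was called throughout. This alarmin had 8.40, 9.08 and 9.24 against 10.43, 10.11 and 9.94 (-1.26 ± 0.22, adjusted p = 8.9e-05), while Il1b rose by 1.15 ± 0.31 with its call lost without rat72 (adjusted p = 0.11), rat11 (0.0646) or rat12 (0.0537). Of 18 acute phase proteins, Crp had 12.99, 12.96 and 12.94 against 11.91, 12.03 and 11.80 (1.05 ± 0.22, adjusted p = 0.000771), the ferrireductase Steap4 rose by 0.67 ± 0.13 and Itih3 fell by 0.31 ± 0.07.

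Interferon targets were higher, unevenly between rats. Of 14 measured GTPases and class I processing genes induced by interferon gamma, 12 rose (median 0.94), 8 without rat70, and 8 were called throughout. Over all genes 10.2% rose, 5.04% without rat70 and 3.58% throughout. Gbp2, a guanylate-binding protein, had 7.14, 5.14 and 8.27 in combination and 4.72, 3.94 and 3.55 in vehicle, at least 5.58-fold higher (adjusted p = 1.39e-05). Igtp, an immunity-related GTPase, had 8.89, 7.26 and 9.84 against 6.77, 6.82 and 6.62 (1.93 ± 0.36, adjusted p = 0.000187). The immunoproteasome subunit Psmb9 rose by 1.79 ± 0.26 and the peptide transporter Tap1 by 1.30 ± 0.21. Rat71 was the lowest combination rat in all 4. Of 20 genes stimulated by type I interferon, 11 rose (median 0.77), yet 2 without rat70 and 2 throughout (Ifi44 and Ifit2). The last 2 counts were much nearer to the shares of all genes than the first. Irf7, a regulator of type I interferon, had 9.13, 7.00 and 7.31 against 6.60, 6.46 and 6.63 (1.25 ± 0.29), with an adjusted p of 0.098 without rat70. Isg15, a ubiquitin-like protein, had 8.61, 6.42 and 6.97 against 6.26, 6.14 and 6.24 (1.12 ± 0.33), with an adjusted p of 0.346 without rat70. Rsad2 had 8.23, 6.12 and 6.40 against 5.83, 5.29 and 5.75, with an adjusted p of 0.132 without rat70. The mean of the 20 genes exceeded vehicle by 1.35 in rat70, 0.14 in rat71 and 0.48 in rat72.

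DNA replication genes were called higher in 20 of 21 measured members (median 0.96), 12 without rat70 and the same number throughout. The matching shares of all genes were 10.2%, 5.04% and 3.58%. Mcm6, a subunit of the replicative helicase, had 8.34, 6.16 and 5.44 in combination and 3.92, 3.67 and 3.62 in vehicle, at least 4.84-fold higher (adjusted p = 3.04e-06). Mcm4 had 8.56, 6.77 and 6.69 against 5.90, 5.75 and 5.44 (1.64 ± 0.27, adjusted p = 3.83e-05), and Mcm2 had 7.67, 6.17 and 6.12 against 5.04, 5.15 and 4.87 (1.63 ± 0.23, adjusted p = 3.27e-06). Cdt1, which loads the helicase, was at least 1.81-fold higher (adjusted p = 4.92e-05). Rat70 was the highest in all 4, and the mean over the 21 genes exceeded vehicle by 1.89 in rat70, 0.68 in rat71 and 0.59 in rat72. Chaf1b was the member not called.

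Many replication genes are bound by E2F factors before S phase. Stretches of 3 helicase promoters (RefSeq, GRCr8) are printed because these genes rose together and because both strands of the element TTTNGCGC overlap there, marked by capitals. Mcm6 is at chr13:42404455-42404516 (minus strand), Mcm2 at chr4:122918095-122918133 (minus strand) and Mcm5 at chr19:13488575-13488636 (plus strand).
Mcm6: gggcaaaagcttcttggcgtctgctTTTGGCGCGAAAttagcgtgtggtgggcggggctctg
Mcm2: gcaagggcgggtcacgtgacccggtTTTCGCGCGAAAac
Mcm5: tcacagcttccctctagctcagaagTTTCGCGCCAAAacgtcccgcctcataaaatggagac
Searched on both strands (TTTNGCGC or GCGCNAAA) in the 250 bases before the start site, the element was found in 7 of 18 replication members with a promoter in the table (38.9%), which were Gins1, Mcm2, Mcm5, Mcm6, Mcm7, Pola1 and Tyms. It was found in 191 of 11733 genes (1.63%). These letters too were chosen after the values were seen.

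Mitosis genes gave fewer calls at lower signal. Of 27 measured, 12 rose and 0 fell, 11 were under background in both groups, 2 rose without rat70 and 2 were called throughout (Cdk1 and Cenpf). Of all genes 10.2% rose, 5.04% without rat70 and 3.58% throughout, so that the last 2 counts were little above those shares. Cdk1, the mitotic kinase, had 6.47, 4.68 and 5.85 in combination and 3.29, 3.70 and 3.64 in vehicle, at least 2.45-fold higher (adjusted p = 0.00186). Mki67, a marker of cycling cells, had 5.56, 3.31 and 4.67 against 2.23, 2.55 and 2.38, at least 1.1-fold higher, and lost its call without rat70 (adjusted p = 0.0721). Among 21 growth factors, receptors and early growth genes, Ccnd1 and Tnfsf12 were called higher and Il6st lower, where 15.9% of all genes were called. Tnfsf12, a TNF family ligand, was the one called throughout (0.58 ± 0.14). Il6st, the shared receptor chain of the interleukin 6 family, lost its call without rat12 (adjusted p = 0.328), rat70 (0.247), rat71 (0.0609) or rat10 (0.0523). Ccnd1, the cyclin that starts the hepatocyte cycle, had 10.04, 8.65 and 8.42 against 8.30, 7.68 and 6.52 (1.54 ± 0.45) and lost its call without rat70 (adjusted p = 0.194) or rat12 (0.17).

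Proteasome subunits were called higher in nearly every member. Of 25 measured, 24 rose (median 0.67), 20 without rat70, and 20 were called throughout, with Psma3 not called. Beside these and the cytoskeleton counts below stand 10.2% of all genes higher, 5.04% without rat70 and 3.58% throughout. Psmd14, a deubiquitinating lid subunit, had 10.10, 9.52 and 9.41 in combination and 8.37, 8.56 and 8.32 in vehicle (1.26 ± 0.19, adjusted p = 9.35e-06). The core subunit Psma1 had 10.95, 10.63 and 10.35 against 9.48, 9.53 and 9.42 (1.17 ± 0.14, adjusted p = 3.92e-07). The differences were modest, with 1.91-fold for Psmb3, and the groups did not overlap in these 3 genes. Among 17 tubulin and actin cytoskeleton genes 12 rose (median 0.97), 6 without rat70 and 5 throughout. Tubb4b had 10.70, 10.52 and 9.75 against 8.82, 9.22 and 9.01 (1.30 ± 0.23, adjusted p = 0.000117), Tubb6 rose by 1.27 ± 0.22, and the phospholipid-binding Anxa5 by 1.24 ± 0.15. A second probe set of Tubb6 differed by -0.07 and was not called. Anxa2 rose by 1.49 ± 0.36 with an adjusted p of 0.0947 without rat70.

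Other stress groups moved in part, where 10.2% of all genes rose and 5.77% fell. Of 11 heat shock genes, 6 rose, 2 without rat70 and 2 throughout, the chaperones Hspe1 (0.65 ± 0.12) and Hsp90ab1 (0.62 ± 0.13). Against all 15 vehicle rats of the series the differences were -0.02 for Hspe1, -0.06 for Hsp90ab1 and -0.27 for Hsph1, which is the opposite sign. Hspa1a, the classic inducible chaperone, was not called (5.89 in combination and 5.73 in vehicle). Of 28 ribosome biogenesis genes, 9 rose and Rrn3 fell, without rat70 1 rose and 0 fell, and Nhp2 was the one called throughout (0.92 ± 0.18). The list mean exceeded vehicle by 0.70 in rat70, 0.19 in rat71 and 0.05 in rat72. Among 16 p53 targets 5 rose and 1 fell, and without rat70 2 rose and 1 fell. Mdm2, the inhibitor of p53, had 8.98, 8.56 and 7.98 against 7.39, 7.41 and 7.68 (1.01 ± 0.23, adjusted p = 0.00166) and Rprm was at least 1.54-fold lower, while Phlda3 lost its call without rat70 (adjusted p = 0.0748) and Gadd45a without rat71 (0.0514). Of 20 apoptosis and death receptor genes 5 rose and Cflar fell, with 3 higher without rat70 and 2 throughout. Ripk3, a kinase of necroptosis, had 6.50, 5.10 and 6.30 against 4.67, 4.19 and 4.58 (1.49 ± 0.22, adjusted p = 7.11e-06), and Bcl2a1, a survival factor, rose by 1.41 ± 0.31. Tnfrsf12a lost its call without rat70 (adjusted p = 0.116) and Casp1 without rat12 (0.0617). Of 21 genes of the ATF4 and ATF3 response 5 rose and 3 fell, while without rat70 3 rose and 1 fell, and 2 were called throughout. Asns, the asparagine synthetase, was at least 1.17-fold higher, Slc3a2 rose by 0.89 ± 0.19, Gdf15 lost its call without rat71 (adjusted p = 0.0782) and Nupr1, which fell, without rat70 (0.0743). Of 18 endoplasmic reticulum chaperones and folding enzymes 3 rose and Herpud1 fell, with Hspa13 alone called throughout (0.61 ± 0.13) and 1 higher without rat70. Herpud1 lost its call without rat70 (adjusted p = 0.271), rat10 (0.124), rat11 (0.0588) or rat12 (0.0639). In the pyrimidine and galactose pathway, which galactosamine loads, 5 of 13 rose and 1 fell, and 1 in each direction was called without rat70 and throughout. Nme1 lost its call without rat70 (adjusted p = 0.183) or rat12 (0.0902) and Upp1 without rat70 (0.0525), rat72 (0.0916) or rat12 (0.118). Ctps1, the CTP synthetase, had 7.03, 5.52 and 5.72 against 4.85, 4.47 and 4.34 (1.54 ± 0.25, adjusted p = 4.43e-05), and Ugp2, which makes UDP-glucose, had 10.17, 10.94 and 10.54 against 11.59, 11.17 and 11.42 (-0.85 ± 0.19, adjusted p = 0.00141).

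Genes of hepatocyte function were lower in a minority of members, where 5.77% of all genes were called lower and 10.2% higher. Of 21 secreted proteins and amino acid enzymes, 8 fell and 0 rose (median -0.21), and without rat70 0 were called. The mean level over the 21 was 11.44, 11.89 and 11.99 in combination and 12.25, 12.09 and 12.19 in vehicle. Hal, the histidase, had 7.67, 9.74 and 9.21 against 10.46, 10.16 and 10.09 (-1.36 ± 0.37, adjusted p = 0.208 without rat70). Tat, the tyrosine aminotransferase, had 9.71, 9.65 and 10.48 against 11.12, 10.82 and 11.20 (-1.10 ± 0.31), its call lost without rat70 (adjusted p = 0.0743), rat71 (0.0544) or rat12 (0.0538). Of 14 hepatocyte transcription factors Klf15, which drives amino acid breakdown in fasting, fell by 0.99 ± 0.22 and was called throughout. Of 18 bile acid genes 3 fell. They were Fgfr4, the receptor that represses bile acid synthesis (7.06, 7.41 and 7.06 against 7.86, 8.03 and 8.04, -0.80 ± 0.13, adjusted p = 2.42e-05), and Cyp27a1 and Slc27a5, whose calls were lost without rat70 (adjusted p = 0.228 and 0.0588), that of Cyp27a1 also without rat12 (0.0577). Of 9 pericentral genes, Slc1a2 was called higher and Axin2 lower. Both calls were lost without rat70 (adjusted p = 0.0871 and 0.108), that of Slc1a2 also without rat12 (0.0594) and that of Axin2 without rat11 (0.063). Glul, which marks the hepatocytes next to the central vein, was not called, with 9.87, 9.99 and 11.25 against 10.96, 11.09 and 10.76.

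Lipid genes were called singly, where 10.2% of all genes were called higher and 5.77% lower. Of 15 fatty acid synthesis genes 1 rose and 3 fell. Srebf1, the lipogenic transcription factor, had 7.84, 7.89 and 8.38 in combination and 9.48, 9.63 and 10.00 in vehicle (-1.66 ± 0.28, adjusted p = 4.72e-05), and the elongase Elovl6 had 8.41, 7.85 and 7.61 against 6.73, 6.96 and 6.69 (1.17 ± 0.26, adjusted p = 0.00144). Both calls and that of Fads2 were kept with each rat left out, and that of Thrsp was not (adjusted p = 0.269 without rat70 and 0.0529 without rat11). Of 19 fatty acid oxidation genes Vnn1, a PPAR alpha target that releases pantothenate, was called (1.53 ± 0.41, adjusted p = 0.00793), and the median of the list was 0.00. The largest difference of the list, 2.59, was that of a member not called. Msmo1, a sterol oxidase, was the member called among 19 cholesterol genes and lost its call without rat70 (adjusted p = 0.153), rat10 (0.129), rat12 (0.107) or rat71 (0.0606). Of 18 clock genes 1 rose and 7 fell (median -0.51), but without rat70 0 rose and 1 fell, and Noct was the one called throughout. Npas2 (higher, adjusted p = 0.0412) and Per3 (lower, adjusted p = 0.0224) lost their calls without rat70 (0.291 and 0.132) and several other rats, and the differences had the opposite sign when all 15 vehicle rats were the control (-0.63 and 0.46).

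Of 31 fibrillar collagens and associated matrix genes Ccn2 and Sparc were called higher and Eln lower at 48 h, where 15.9% of all genes were called, and none was called throughout. Ccn2 lost its call without any rat but rat71 (up to an adjusted p of 0.322 without rat72) and Eln without rat70 (0.0738). The mean over the 31 genes differed from vehicle by -0.06 in rat70, 0.06 in rat71 and 1.15 in rat72, while vehicle rat10 lay 0.39 above the vehicle mean. One combination rat of 3 was thus above the vehicle range. Sparc, a collagen-binding protein, had 9.87, 9.94 and 10.81 in combination and 9.97, 9.06 and 8.77 in vehicle (0.94 ± 0.25), and its call was lost without rat72 (adjusted p = 0.0859) or rat12 (0.0937). Of 19 basement membrane genes 3 were called higher (Col4a1, Col4a2 and Nid1) and Col18a1 lower, none throughout. Col4a1 had 7.08, 6.81 and 9.05 against 7.22, 6.76 and 6.39, with an adjusted p of 0.735 without rat72, 0.238 without rat12 and 0.114 without rat11. The calls of Col4a2 and Nid1 were also lost without rat72 (adjusted p = 0.513 and 0.119) or rat12 (0.152 and 0.0904), that of Col4a2 without rat11 (0.0725), and that of Col18a1 without rat70 (0.118). Of 18 matrix proteases and inhibitors, 2 rose, near the 10.2% of all genes called higher, and both were called throughout. Timp1, the inhibitor of matrix metalloproteinases, had 6.85, 6.07 and 8.63 against 6.03, 5.58 and 5.13 (1.60 ± 0.36, adjusted p = 0.00148), and Plau, the urokinase, had 7.37, 6.83 and 7.88 against 6.42, 5.88 and 5.14 (1.54 ± 0.27, adjusted p = 0.000103).

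Genes of matrix-producing cells were on average also highest in rat72. The counts below stand beside 10.2% of all genes called higher and 5.77% lower. Of 20 stellate cell and myofibroblast genes 3 were called higher, and Rgs5, a marker of pericytes, was the one called throughout (7.60, 7.46 and 7.09 against 6.44, 6.17 and 6.71, 0.94 ± 0.19). The list mean exceeded vehicle by 0.10, 0.06 and 0.69, with vehicle rat10 at 0.31. Vim had 8.21, 8.01 and 9.84 against 8.13, 7.22 and 6.84 and lost its call without rat72 (adjusted p = 0.303), rat11 (0.108) or rat12 (0.188), and S100a6 without rat70 (0.368), rat12 (0.216), rat11 (0.118) or rat72 (0.103). Of 25 TGF-beta ligands, receptors and targets Skil and Tgfb1 were called higher and Tgfbi lower, and Tgfbi alone was called throughout (-0.73 ± 0.14). Skil lost its call without rat70 (adjusted p = 0.0912), rat12 (0.0667) or rat11 (0.0532), and Tgfb1 without rat72 (0.234), rat12 (0.123) or rat11 (0.0577). Of 16 endothelial genes 4 were called higher, with Fcgr2b, the Fc receptor of sinusoidal cells (0.88 ± 0.14), and Eng (0.61 ± 0.12) called throughout. Lyve1 lost its call without rat12 (adjusted p = 0.121), rat72 (0.0782) or rat70 (0.0658), and Tie1 without rat72 (0.138), rat12 (0.0976) or rat11 (0.0661). Of 13 cholangiocyte and progenitor genes Krt8 and Krt18, which hepatocytes also express, were called higher, and neither without rat70 (adjusted p = 0.284 and 0.0911). Krt8 lost its call without rat12 (0.0848), rat10 or rat71 too. Of 6 red cell genes 0 were called in the limma fit, and 0 at an unadjusted p under 0.05. Of 15 genes of pancreas, fat and muscle, Cpb1 rose by 0.91 ± 0.20, while 10 were under background in both groups. Cfd, a fat cell protease, was called higher (0.71 ± 0.24) and lost its call without rat12 (adjusted p = 0.233), rat11 (0.186), rat72 (0.116) or rat71 (0.0969).

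**Figure D2:**
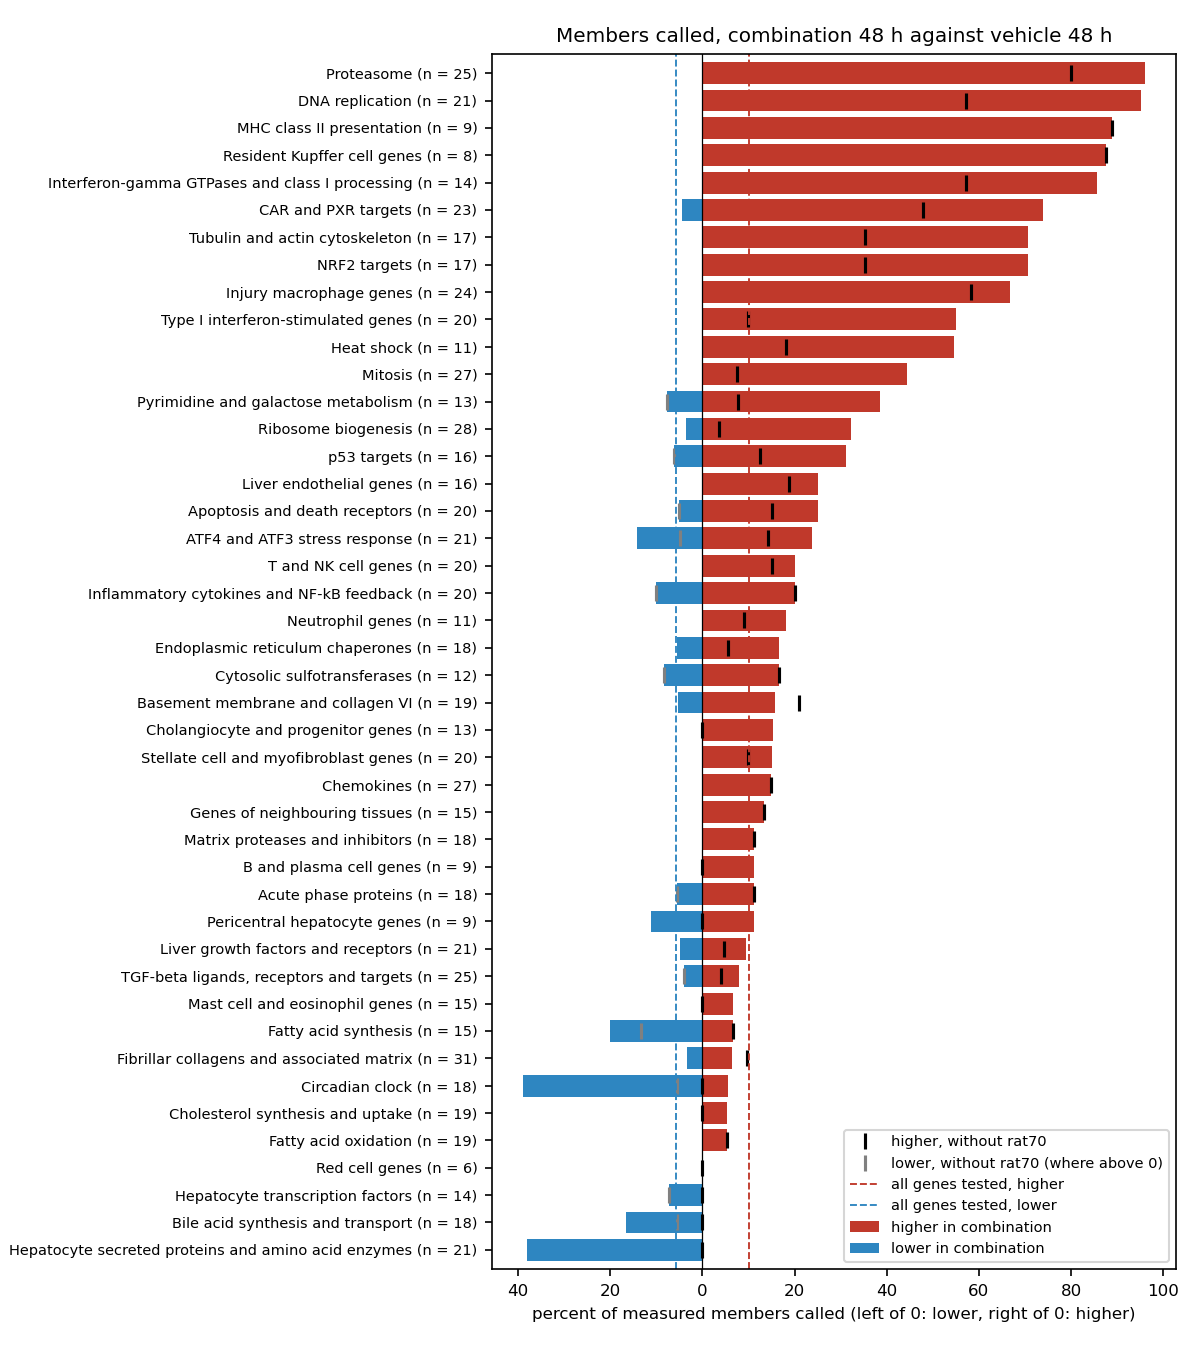
Percent of the measured members of each gene list called higher (right of 0) or lower (left of 0) in combination than in vehicle livers at 48 h, with ticks for the shares without rat70 and dashed lines for the shares over all genes (10.2% higher, 5.77% lower). DNA replication (20 of 21), proteasome (24 of 25) and MHC class II (8 of 9) have the longest bars, and the tick of type I interferon-stimulated genes (2 of 20) lies far inside its bar (11 of 20).

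**Figure D3:**
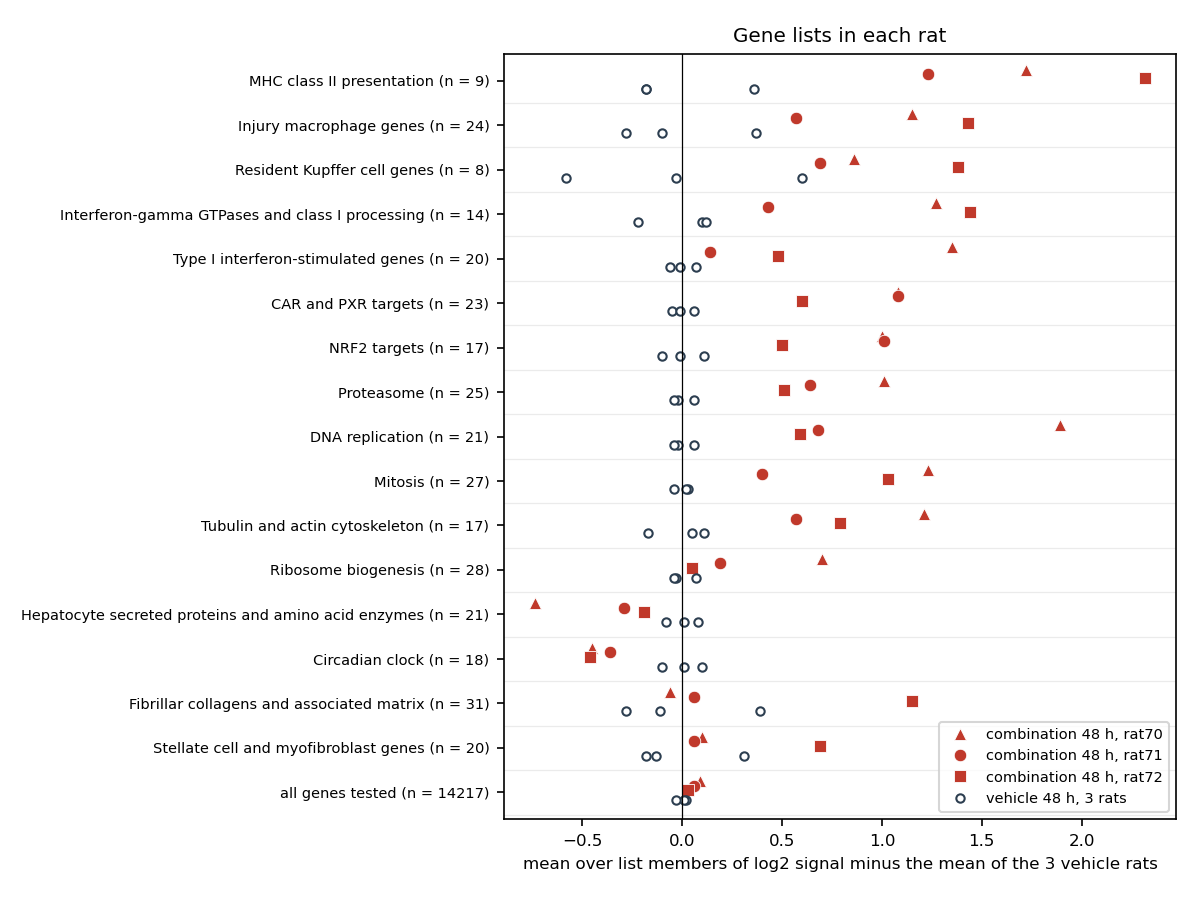
Mean over each list of the signal of a rat minus the vehicle mean, in log2 units, with filled markers for the combination rats and open circles for the vehicle rats. Rat70 lies highest for DNA replication (1.89) and type I interferon-stimulated genes (1.35) and lowest for hepatocyte genes (-0.74), and rat72 highest for MHC class II (2.32) and fibrillar collagens (1.15).

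Galactosamine alone was set against the combination at 48 h to see which differences held between rats that had both had the toxin. Of the 14217 genes 4163 were called (29.3%), 1726 higher (12.1%) and 2437 lower (17.1%) in combination than in galactosamine livers (3 against 2 rats). The count was 2590 without rat26 and 2407 without rat27, the galactosamine rats, and 1828 genes were called with each rat left out (12.9%, 497 or 3.50% higher and 1331 or 9.36% lower). Cyclic loess normalization gave 1225 higher and 2646 lower. Drug-handling genes were among those furthest above galactosamine. Sult1e1 had 13.16, 12.51 and 11.89 in combination against 7.32 and 5.30 in galactosamine (6.21 ± 0.75, 74-fold, adjusted p = 2.94e-08), and Cyp3a2 12.01, 12.08 and 9.20 against 6.22 and 7.42 (4.28 ± 0.84, adjusted p = 0.00014). Inmt, a methyltransferase of indoleamines, had 9.53, 9.72 and 8.91 against 4.42 and 3.86 in galactosamine, at least 32.4-fold higher. Its vehicle values were 8.06, 8.17 and 9.40, so that it was galactosamine alone that stood apart. The same held for Cyp3a9, with 11.23, 10.47 and 11.54 in combination, 7.90 and 8.46 in galactosamine (2.90 ± 0.34) and 10.38, 11.25 and 10.62 in vehicle. Sema3c, a secreted guidance factor, was at least 6.92-fold higher in combination.

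The genes furthest below galactosamine were near vehicle in 3 of 5 cases. Lama5, a laminin chain, had 5.07, 5.07 and 4.84 in combination, 9.98 and 9.97 in galactosamine (-4.98 ± 0.38, adjusted p = 1.05e-12) and 4.85, 4.87 and 5.06 in vehicle. Wnt4, a secreted signal, had 4.48, 4.09 and 4.74 in combination against 9.22 and 8.73 in galactosamine (-4.54 ± 0.51), with 4.56, 4.83 and 4.13 in vehicle. Micall2, an actin-linked adaptor of tight junctions, was at least 9.71-fold lower in combination than in galactosamine. Tubb6 had 7.10, 6.28 and 6.35 against 9.94 and 9.73 in galactosamine (-3.26 ± 0.25) and Srxn1 8.51, 9.05 and 7.85 against 11.60 and 11.41 (-3.04 ± 0.47). Both were also above vehicle in the combination livers, so that they lay between the other groups.

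By list, CAR and PXR targets were called higher than in galactosamine in 16 of 23 members and lower in 1 (median 1.27), and 12 higher ones were kept with each rat left out. Proteasome subunits were called higher in 14 of 25 (8 kept). Lower than in galactosamine were ribosome biogenesis genes in 14 of 28 (12 kept), genes of the ATF4 and ATF3 response in 10 of 21 with 2 higher (5 lower and 1 higher kept), p53 targets in 7 of 16 with 3 higher (4 lower and 1 higher kept) and cytoskeleton genes in 5 of 17 (5 kept). Phlda3, a p53 target, had an adjusted p of 3.94e-10 for its lower signal in combination. In 2 groups that were high against vehicle, no member passed this test. They were class II presentation (0 of 9, median difference from galactosamine of 0.11) and resident Kupffer cell genes (0 of 8, median -0.22). Galactosamine livers differed from the same vehicle rats in 39.4% of genes (24.9% higher, 14.5% lower). Against these shared vehicle rats the class II median was 1.98 in combination and 1.87 in galactosamine, and the Kupffer cell median 1.06 and 1.34. The median of CAR and PXR targets was 0.94 in combination and -0.32 in galactosamine, where 9 of 23 were called lower and 3 higher than vehicle. Macrophage genes of injury had medians of 1.22 and 1.48 against vehicle, with 2 of 24 higher and 2 lower in combination than in galactosamine. RT1-Da differed from galactosamine by 0.02 (adjusted p = 0.973) and Gpnmb by -0.61 (adjusted p = 0.252), tests that do not show the groups to be alike.

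**Figure D4:**
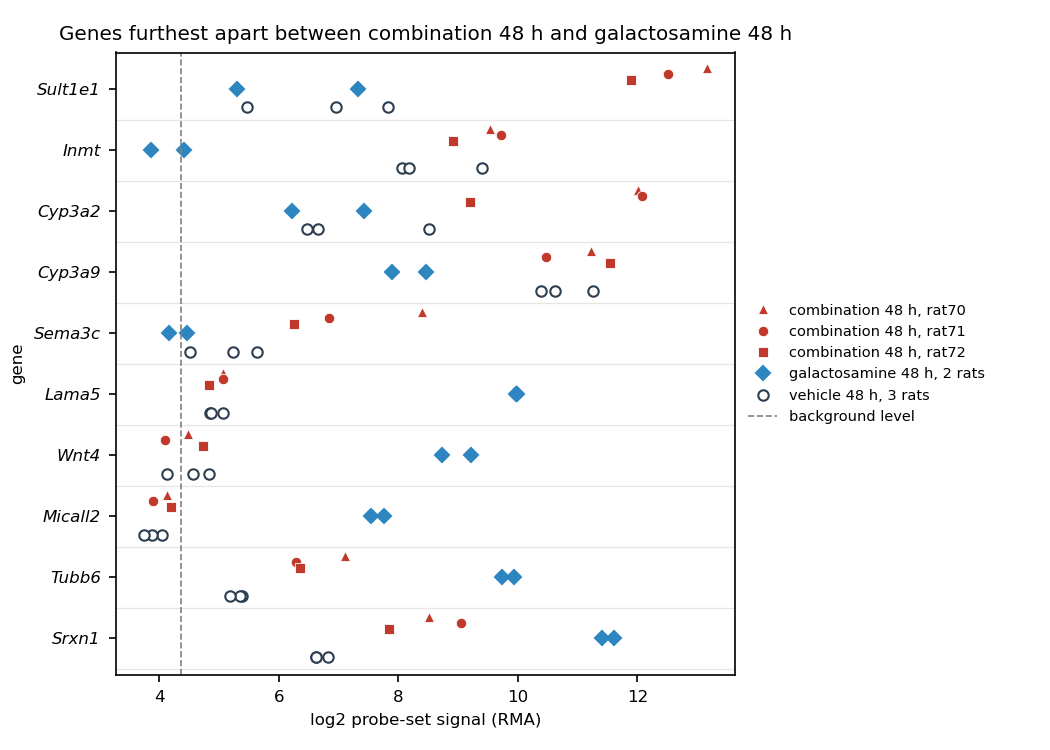
Signal on the log2 scale of the 5 genes furthest above and the 5 furthest below galactosamine in the combination livers, with filled markers for the combination rats, diamonds for the 2 galactosamine rats and open circles for vehicle. Inmt and Cyp3a9 are low in galactosamine alone, Lama5, Wnt4 and Micall2 are high in galactosamine alone, and Tubb6 and Srxn1 lie between galactosamine and vehicle in the combination livers.

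The combination effect at 48 h was next compared with that at 24 h, each against its own vehicle group. The effects differed for 2080 genes (14.6%), more positive at 48 h for 1038 (7.30%) and more negative for 1042 (7.33%), and 1079 were called with each of the 12 rats left out (7.59%, 3.85% more positive and 3.74% more negative). For fatty acid oxidation the effect was more positive at 48 h in 15 of 19 members (13 kept with each rat left out), with a median effect of -1.07 at 24 h and 0.00 at 48 h. At 24 h, 17 of the 19 were called lower than vehicle, where 36.7% of all genes were called, 2271 of the 14217 lower. Bile acid genes had a median effect of -0.65 at 24 h and -0.12 at 48 h, with 7 of 18 more positive at 48 h (3 kept). Ribosome biogenesis genes were called higher in 27 of 28 at 24 h (20.7% of all genes were called higher) and in 9 of 28 at 48 h (1 without rat70). The effect was more negative at 48 h in 20 of them (18 kept). Of p53 targets 8 of 16 had a more negative effect at 48 h (7 kept). CAR and PXR targets had a median of 0.37 at 24 h and 0.94 at 48 h, with 1 of 23 passing the test of the difference.

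Single genes differed between 24 h and 48 h in either direction. Gys2, the liver glycogen synthase, had 7.94, 8.45 and 6.90 in combination at 24 h against 10.90, 10.35 and 10.86 in vehicle, and 8.75, 8.96 and 9.81 against 9.26, 9.00 and 8.71 at 48 h (difference of effects 3.13 ± 0.37, adjusted p = 3.32e-07). Apeg3, named as an antisense transcript of Peg3, had effects of -1.35 at 24 h and 1.49 at 48 h (2.84 ± 0.26), and Abhd1, a hydrolase, of -2.67 and 0.11 (2.78 ± 0.30). Mean Abhd1 signal was 6.56 at 24 h and 7.85 at 48 h in combination, and 9.22 and 7.74 in vehicle. For Gys2 the means were 7.76 and 9.17 in combination, and 10.70 and 8.99 in vehicle. Part of the difference of both genes thus lay in vehicle. E2f5, a repressive E2F factor, had effects of 2.08 and -0.25 (-2.33 ± 0.31), Tubb2a of 3.52 and 1.13 (-2.39 ± 0.52) and Itgae, an integrin chain, of 2.32 and 0.12 (-2.19 ± 0.40). Scd, the stearoyl-CoA desaturase, had effects of 2.95 and -0.38 (-3.33 ± 0.88), and Car3, a carbonic anhydrase, of 1.38 and -1.04 (-2.43 ± 0.61). Mean Car3 signal in combination was 9.68 at 24 h and 9.73 at 48 h, and in vehicle 8.30 and 10.78, so that its effects differed through vehicle. With all vehicle rats as 1 control the difference for Car3 was 0.05, the opposite sign. Sds, the serine dehydratase, had effects of -5.08 and -1.94 (3.14 ± 0.98, adjusted p = 0.0241), a call lost in 6 of the 12 left-out fits, up to an adjusted p of 0.123 without rat72. Mean Sds signal was 6.35 at 24 h and 7.77 at 48 h in combination, and 11.43 and 9.72 in vehicle, which is part of its difference. Fos, an immediate early gene, was at least 6.19-fold lower than vehicle at 24 h and not called at 48 h (4.70 in combination and 4.08 in vehicle). Its effects differed (adjusted p = 0.043), but it lost its call in 10 of 12, up to an adjusted p of 0.177 without rat6, whose vehicle value was 9.43 against 7.01 and 4.56 in the other vehicle rats at 24 h.

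The effect at 48 h was last set against that at 8 d, when combination rats had been dosed for 15 d and vehicle rats at 15 d were the control. The vehicle rats at 48 h match the time after galactosamine and not the days of dosing. The effects differed for 1281 genes (9.01%), more positive at 48 h for 706 (4.97%) and more negative for 575 (4.04%). The count was 845 without rat70, 833 without rat14, 803 without rat15 and 809 without rat87, and 483 genes were called with each rat left out (3.40%, 1.70% in each direction). A fit of these 12 arrays alone turned the balance, with 372 genes more positive and 549 more negative at 48 h. Interferon targets had the larger effect at 48 h. Of 14 GTPases and class I processing genes, 9 were more positive at 48 h (6 kept), with a median effect of 0.94 at 48 h and -0.16 at 8 d, and of 20 type I targets 12 were (5 kept), with medians of 0.77 and -0.47. Gbp2 had 5.92, 4.64 and 5.21 in combination at 8 d against 5.00, 4.53 and 5.62 in vehicle, an effect of 0.20, and was at least 5.58-fold higher at 48 h (adjusted p = 0.00605 for the difference). Igtp (2.49 ± 0.51), Isg15 (2.37 ± 0.46) and Slfn4, a Schlafen gene (2.29 ± 0.50), were likewise more positive at 48 h, each with an effect under 0 at 8 d. Combination means of Gbp2, Igtp, Isg15 and Slfn4 were lower at 8 d than at 48 h. Their vehicle means were 5.05, 7.46, 6.97 and 8.02 at 15 d and 4.07, 6.74, 6.21 and 6.81 at 48 h. Part of each difference of effects thus lay in vehicle. A second Slfn4 probe set differed from vehicle by -0.05 at 48 h and was not called. Fgf21, a fasting hormone of the liver, had effects of -0.05 at 48 h and -2.37 at 8 d (2.32 ± 0.51). Its means were 5.83 and 5.12 in combination at 48 h and 8 d, and 5.88 and 7.50 in vehicle at 48 h and 15 d. Proteasome subunits were more positive at 48 h in 15 of 25 (8 kept), with medians of 0.67 and 0.15, and DNA replication genes in 7 of 21 (4 kept), with medians of 0.96 and 0.37. Kupffer cell genes had a median of 1.06 at 48 h and 0.10 at 8 d (4 of 8 more positive at 48 h, 1 kept).

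Some matrix genes had the larger effect at 8 d. Of 31 fibrillar matrix genes 17 were called higher at 8 d, where 24.8% of all genes were called (13.1% higher, 11.7% lower), against 2 at 48 h, and 4 passed the test of the difference (2 kept). Aspn, a small collagen-binding proteoglycan, had 2.35, 2.48 and 4.77 in combination and 4.43, 2.47 and 2.96 in vehicle at 48 h, and 7.01, 7.76 and 8.31 against 4.19, 4.42 and 3.58 at 8 d, at least 10.0-fold higher (adjusted p = 0.00296 for the difference of effects). Lox, which crosslinks collagen, was under background in both groups at 48 h and at least 6.71-fold higher than vehicle at 8 d (adjusted p = 0.00877 for the difference of effects). Mmp12, the macrophage elastase, was at least 2.51-fold higher at 48 h and at least 17.1-fold higher at 8 d (adjusted p = 0.00231 for the difference). For Postn, a matrix protein of activated fibroblasts, the combination values at 48 h were 2.95, 2.80 and 6.71 and those at 8 d 7.80, 6.58 and 8.77, with vehicle values of 2.97, 2.64 and 2.43 at 48 h and 2.45, 2.46 and 2.31 at 15 d. Rat72 alone of the 48 h rats was thus near the level of 8 d. Postn was at least 10.2-fold higher at 8 d, and its difference of effects (adjusted p = 0.0251) lost its call without rat70 (adjusted p = 0.0863), rat71 (0.0773), rat87 (0.0808), rat10 (0.0552) or rat15 (0.0512). Pbsn, a lipocalin first known from prostate, was under background in both groups at 48 h and at least 4.90-fold higher at 8 d, with 3.56, 8.36 and 8.07 in combination. Its difference of effects (adjusted p = 0.0164) lost its call without rat84 (0.0805) or rat87 (0.0763). Mitosis genes were called higher in 12 of 27 at 48 h and 23 of 27 at 8 d, with medians of 0.76 and 1.54, while 1 passed the test of the difference. Class II presentation had 8 of 9 called higher at each time and medians of 2.12 at 24 h, 1.98 at 48 h and 1.77 at 8 d, and no member passed the test of a difference from 24 h or from 8 d.

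**Figure D5:**
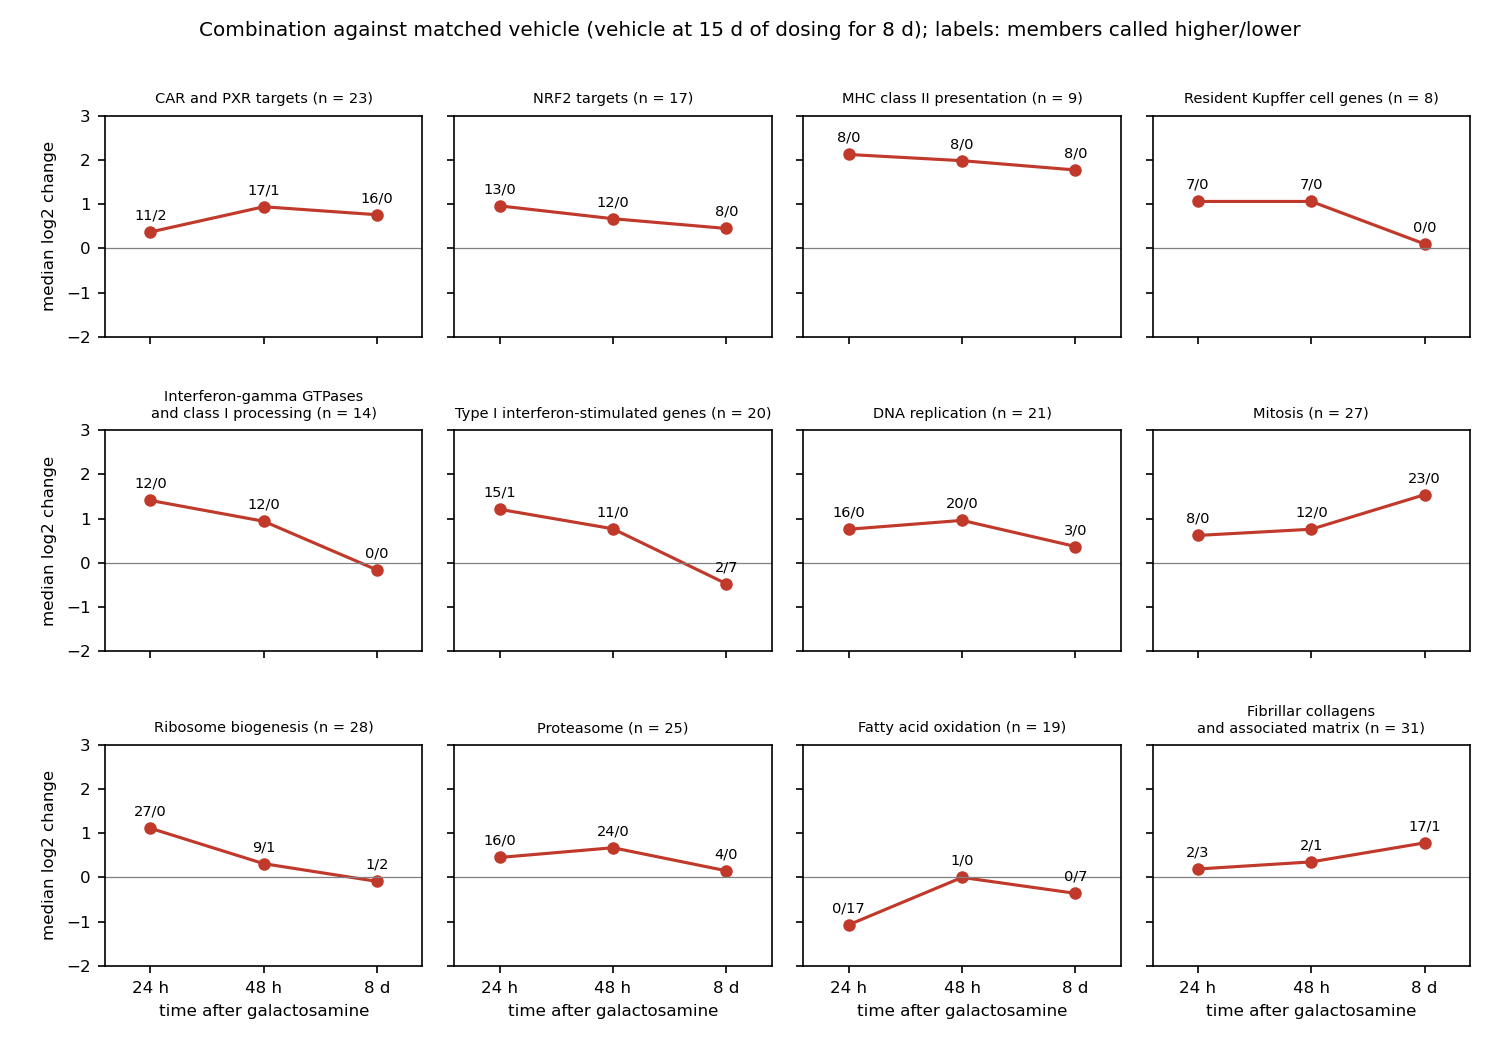
Median log2 change of the combination against its vehicle group at 24 h, 48 h and 8 d after galactosamine for 12 gene lists, with the number of members called higher and lower beside each point. Fatty acid oxidation lies at -1.07 at 24 h and 0.00 at 48 h, type I interferon-stimulated genes at 1.21 at 24 h, 0.77 at 48 h and -0.47 at 8 d, and MHC class II between 1.77 and 2.12 at all 3 times.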

How the data were processed

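RNA of frozen rat liver was hybridised to Affymetrix arrays, 1 per rat, after 3′ IVT labelling per the labels' protocols. The deposited values are log2 signals per probe set, normalized with RMA by the authors per the submitters' processing notes, which also name limma, and versions are not given in the sources used here. Arrays hold no read depth, so that the number of arrays limits the precision. Of 31099 probe sets, 20826 had 1 gene symbol in the platform annotation, 436 several and 9831 none, and these last 2 kinds and 6 control probe sets were left out. Of 4525 genes with several probe sets the one with the highest mean was kept, giving 14217 genes. Other probe sets of a named gene did not always give the same call. A group-means model over all 50 arrays and 17 groups, which share 1 estimate of the spread, was fitted with limma 3.58.1 (R 4.3.3), with empirical Bayes variances and Benjamini-Hochberg adjustment over all genes. The 4 contrasts were the combination at 48 h against vehicle and against galactosamine, and its effect at 48 h minus that at 24 h and at 8 d. Tested on simulated data of 14217 genes with 100 changed at each size, the fit recovered 94% of 2-fold and 72% of 1.5-fold changes against vehicle, 88% and 59% against galactosamine, 78% and 27% for the difference from 24 h and 71% and 24% for that from 8 d. False calls numbered 12, 12, 5 and 7 in these 4 contrasts. The simulated noise had 1 standard deviation per gene for all groups and no outlying rat. Recovery may therefore be lower in the combination rats at 48 h, whose spread was wider. Alternatives changed the model, the normalization, the choice of probe set, the control and the rats included. Named were the 12 largest rises and falls among called genes whose groups did not overlap, up to 4 called members per list, all members of lists of at most 12, and the 5 highest and lowest genes of the other contrasts. Genes under background in both groups and symbols beginning LOC or RGD were not named by the first of these. Other genes named were picked after their values were seen. The members and lists were chosen with earlier results of these data known. Promoters came from RefSeq (GRCr8). Tables and figures were made with Python 3.11.15, pandas 2.3.3, scipy 1.17.1 and matplotlib 3.10.9.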

Additional observations from a re-analysis of the deposited data

Results flagged for a closer look

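The test of the difference between effects set these results apart. Between 48 h and 24 h the combination effect differed for 2080 genes. On the log2 scale the difference (48 h minus 24 h) was 4.03 for Fos, 3.14 for Sds, 3.13 for Gys2, 2.84 for Apeg3 and 2.78 for Abhd1, and -3.33 for Scd, -2.43 for Car3, -2.39 for Tubb2a, -2.33 for E2f5 and -2.19 for Itgae. The value for Fos is fitted on means under background (combination at 24 h, vehicle at 48 h) and is no measured size. That for Car3 lay in vehicle (means of 8.30 at 24 h and 10.78 at 48 h), with 9.68 and 9.73 in combination. Vehicle means of Fos, Sds, Gys2, Apeg3 and Abhd1 were lower at 48 h than at 24 h, which is part of their differences. At 24 h and 48 h they were 11.43 and 9.72 for Sds, 10.70 and 8.99 for Gys2, and 9.22 and 7.74 for Abhd1. Those of Scd, Tubb2a, E2f5 and Itgae were higher at 48 h, which is likewise part of theirs. Fos and Sds lost their calls when single rats were left out.

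Between 48 h and 8 d the effect differed for 1281 genes. The difference (48 h minus 8 d) was 2.58 for Gbp2, 2.49 for Igtp, 2.37 for Isg15, 2.32 for Fgf21 and 2.29 for Slfn4, and -3.83 for Postn, -3.72 for Aspn, -3.25 for Mmp12, -3.10 for Pbsn and -3.02 for Lox. The values for Postn, Aspn, Pbsn and Lox are fitted on means under background in both 48 h groups and in vehicle at 15 d, that for Mmp12 on such means in both vehicle groups and that for Gbp2 in vehicle at 48 h, so that they are no measured sizes. Vehicle means of Gbp2, Igtp, Isg15, Fgf21 and Slfn4 were higher at 15 d than at 48 h, which is part of their differences. Postn and Pbsn lost their calls when single rats were left out.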

How the results depend on the processing

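With 1 rat left out, the number of genes called against vehicle ranged from 1104 to 2380, against galactosamine from 2407 to 4567, in the difference from 24 h from 1408 to 2424 and in that from 8 d from 803 to 1719. Fitting only the groups compared gave 374, 1772 (464 higher, 1308 lower), 830 and 921 calls in the 4 contrasts, with fewer residual degrees of freedom. In the last of them 372 genes were more positive and 549 more negative at 48 h, against 706 and 575 with all arrays in the fit. With all 15 vehicle rats as 1 control, 3411 genes were called in the difference from 24 h and 4156 in that from 8 d, and the difference from 8 d had 2221 calls with array weights and 658 with the GAPDH difference as covariate. The causes of these shifts were not tested. Taking all 15 vehicle rats as the control turned 6 of the 184 named gene results it was run on: Npas2 to -0.63, Per3 to 0.46, Hsph1 to -0.27, Hspe1 to -0.02, Hsp90ab1 to -0.06, and the Car3 difference from 24 h to 0.05. Of 164 genes named against vehicle, 43 kept their call under all 14 settings. Cyclic loess left 191 of 194 gene results on the same side of the threshold. No paired analysis was possible because each rat number belongs to 1 rat and is shared by no other group. For probe sets under the bacterial control level a fitted difference is no measured size, and the 2 or 3 arrays of each group limit what can be detected.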
